A study of Mus musculus with 9 samples.

Results

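The genes described here are 151 solute carrier genes of the mouse macrophage line RAW264.7, out of 26146 genes measured and 11536 tested. They were chosen by 2 steps: a gene name that starts with Slc and a digit, and a value of at least 1 FPKM (fragments per length of transcript and per size of library) in at least 3 of 9 libraries. Zinc carriers (the Slc30 and Slc39 families), iron carriers and the arginine, cystine, lactate and main glucose carriers named Slc7a1, Slc7a2, Slc7a11, Slc16a1, Slc16a3, Slc2a1, Slc11a1, Slc11a2 and Slc40a1 were left out by name. Of 313 Slc genes in the table, 31 were left out by name and 131 others lay under the FPKM minimum. Just inside the minimum, by the third highest of the 9 values, were Slc25a47 at 1.01 FPKM, Slc2a4rg-ps at 1.02 FPKM and Slc35d2 at 1.10 FPKM. Just outside it were Slc4a8 at 0.963 FPKM, Slc7a8 at 0.948 FPKM and Slc26a10 at 0.888 FPKM. Of the 151 genes, 135 reached 1 FPKM in all 9 libraries, 5 were under it in every Normal library, and 3 were under it in every M and ET library. Those 8 passed only through the groups in which they were higher, so they had to differ, and their values against Normal are given as a description with no test. Only 140 of the 151 genes had at least 1 library at 1 FPKM or more in each group. Slc16a7 and Slc26a11 averaged under 1 FPKM in M and ET and passed mainly through Normal. By symbol, 5 of the 151 are not themselves carriers: adaptor, binding or neighbouring genes and 1 pseudogene (Slc9a3r1, Slc9a3r2, Slc4a1ap, Slc7a6os and Slc2a4rg-ps).

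RNA was sequenced from 3 groups of 3 libraries of RAW264.7, a mouse macrophage line grown from a virus-induced tumour. Lipopolysaccharide (LPS) is the outer membrane component of Gram-negative bacteria that macrophages sense through TLR4. Group M is titled LPS+Extract, group ET is titled LPS, and the Normal group is titled as such, with no treatment named. The library names inside the same labels say the opposite of M and ET, so which of these groups received the extract could not be settled, and the groups carry the names of their table columns. The labels give neither the dose nor the time of LPS or extract, and do not say whether the 3 libraries of a group came from separate cultures. The p-values therefore measure only the spread between these libraries, which may be technical.

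Solute carriers are membrane proteins that move small molecules across the plasma membrane or the membranes of organelles, driven by gradients rather than by direct use of ATP. Some work as exchangers, some carry their substrate together with sodium or protons, and others only let it follow its own gradient. Macrophages depend on them to take up glutamine and other nutrients, to return digested material from lysosomes to the cytosol, and to pass metabolites between mitochondria and cytosol. The genes below are grouped by what their products carry.

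Total counts per library lay between 57796361 and 60881764 in M, 55039858 and 62962615 in ET, and 56921531 and 76242718 in Normal. The 151 genes took 1.31 to 1.32% of the counts in M, 1.32 to 1.36% in ET and 1.27 to 1.28% in Normal. No pair of libraries agreed within sampling noise. Pairs with ET replicate 3 had the largest chi-square per gene (26.2 and 21.4, against 11.2 to 16.3 for the other pairs). Of 8 macrophage markers 7 were tested, with Mertk near 0, and their summed FPKM was 2343 to 2394 in M, 2421 to 2594 in ET and 1925 to 2040 in Normal. Within that sum Cd14 was higher, at 1009, 958.9 and 200.8 FPKM in M, ET and Normal, while Lyz2 (550.4, 669.4 and 995 FPKM) and Csf1r (176, 192 and 320.4 FPKM) were lower in M and ET than in Normal. Markers of other cells, 7 of 9 of them measured, summed to 44.9 to 50.9 FPKM in M, 40.8 to 50.2 FPKM in ET and 0.768 to 0.980 FPKM in Normal. Most of that sum was S100a8, at 44.5, 42.3 and 0.0223 FPKM in M, ET and Normal, with Pecam1 at 3.11, 2.69 and 0.811 FPKM in M, ET and Normal, while Epcam, Col1a1 and Hbb-bs were at or near 0. The part of these markers in the results below was not tested. In bulk RNA, fewer cells that use a gene and less of its RNA per cell cannot be told apart.

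By level, the mitochondrial ADP/ATP carrier Slc25a5 stood far above the rest, and amino acid and mitochondrial carriers made up the top of the order. Levels between genes are compared as deposited FPKM, which is per length of transcript. Slc25a5 averaged 391 ± 1.75 FPKM in M, 397 ± 13.7 FPKM in ET, and 512 ± 17.5 FPKM in Normal (SD, n = 3 each). The next was Slc6a12, the carrier of betaine and GABA, at 145 ± 1.29 FPKM in M, 133 ± 3.70 FPKM in ET, and 133 ± 4.62 FPKM in Normal. Slc25a3, the mitochondrial phosphate carrier, averaged 99.6 ± 1.32 FPKM in M, 98.2 ± 1.96 FPKM in ET, and 113 ± 0.787 FPKM in Normal. These levels put Slc6a12 above Slc25a3 in every group, beyond the spread of the libraries. The glutamine carrier Slc1a5 averaged 108 ± 2.103 FPKM in M, 119 ± 3.26 FPKM in ET, and 78.4 ± 1.87 FPKM in Normal, and so changed places with Slc25a3: it was higher than Slc25a3 in M and ET and lower in Normal. The next in order, Slc15a3, Slc25a39, Slc25a4, Slc7a5 and Slc3a2, had mean levels in M between 70.1 and 134 FPKM, and in M Slc25a4, Slc7a5 and Slc3a2 did not differ beyond their spread. Only 4 of the 151 genes averaged at least 100 FPKM over the 9 libraries, 66 averaged at least 10 FPKM and 17 averaged under 2 FPKM. The median was 8.23 FPKM. Slc25a5, Slc25a3 and Slc25a4 belong to a family with near-identical copies and pseudogenes, so the split of their reads is uncertain.

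**Figure D1:**
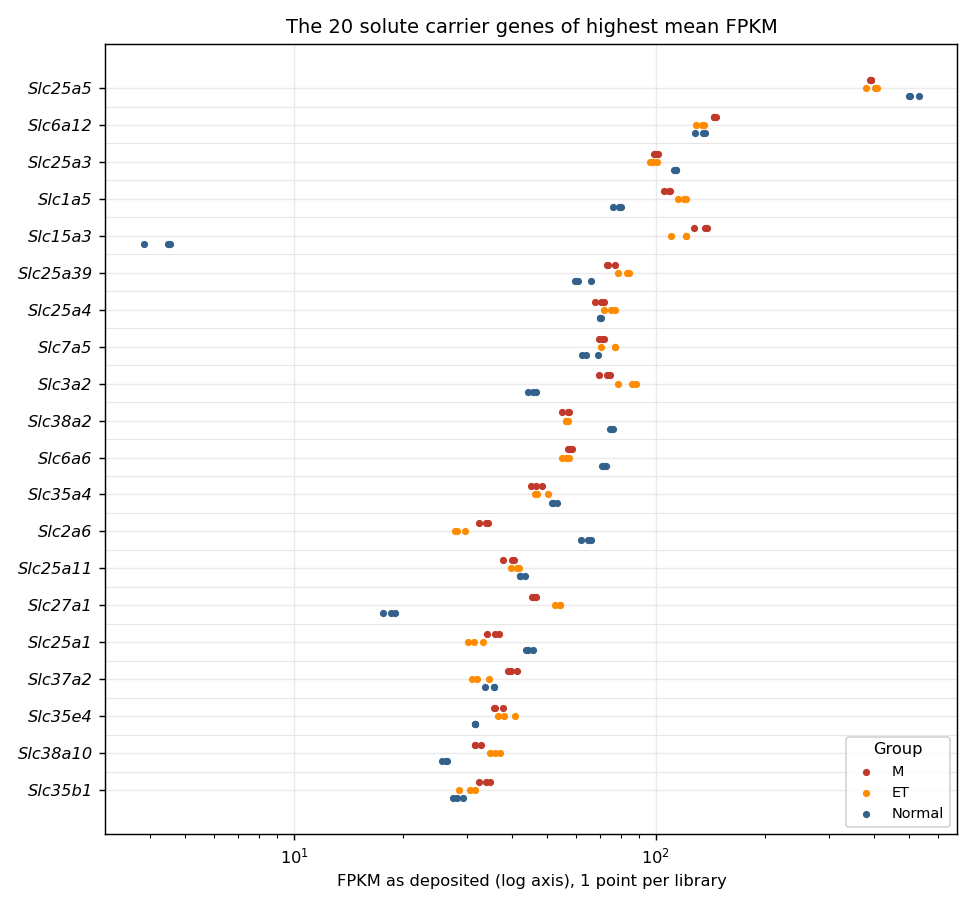
Deposited FPKM (log axis) of the 20 solute carrier genes of highest mean level, with 1 point per library and the groups M, ET and Normal from top to bottom within each gene. Slc25a5 lies to the right of all others in every group, and Slc15a3 averaged 134 FPKM in M and 117 FPKM in ET, against 4.30 FPKM in Normal.

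Summed by substrate as deposited FPKM, amino acid and peptide carriers were higher in the treated groups, and mitochondrial and sugar carriers lower. Single abundant genes carried much of these differences. The summed FPKM of the 23 amino acid and peptide carriers was 818.9 to 833 in M, 810.6 to 858 in ET and 627 to 643 in Normal. For the 36 mitochondrial carriers it was 986 to 994 in M, 989 to 1035 in ET and 1119 to 1146 in Normal. The 12 sugar and polyol carriers summed to 135 to 137 FPKM in M, 121 to 129 FPKM in ET and 181 to 194 FPKM in Normal. In all 3 classes the M and ET libraries lay apart from the Normal libraries, and for sugars M also lay apart from ET. Without Slc15a3 the mean sum for amino acids and peptides was 692 FPKM in M, 724 FPKM in ET and 629 FPKM in Normal. Without Slc25a5, whose read split is uncertain, the mean sum for mitochondrial carriers was 599 FPKM in M, 618 FPKM in ET and 620.0 FPKM in Normal. Without Slc2a6 that for sugars was 102 FPKM in M, 96.3 FPKM in ET and 124 FPKM in Normal. The 7 carriers of calcium, magnesium, phosphate and copper summed to 100.2 to 104 FPKM in M, 103 to 109.8 FPKM in ET and 55.3 to 59.5 FPKM in Normal, and without Slc31a2 their mean sums were 74.4, 79.7 and 55.5 FPKM in M, ET and Normal. The 8 carriers of vitamins, heme and cofactors summed to 107 to 109 FPKM in M, 119.9 to 126 FPKM in ET and 89.6 to 91.8 FPKM in Normal. The sum over all 151 genes was 2823 to 2856 FPKM in M, 2834 to 2956 FPKM in ET and 2770 to 2790 FPKM in Normal. These sums are descriptions and were not tested. They carry no TMM factors, unlike the calls below. On log2(FPKM + 0.1), the median change of all tested genes against Normal was -0.09 in M and -0.09 in ET. In the fit with TMM factors it was -0.01 in M and -0.02 in ET. Treated sums therefore read low beside the calls, and the small mitochondrial difference left without Slc25a5 cannot be read as a fall.

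Most solute carrier genes were called between either treated group and Normal, a share not far above that of all tested genes, and more were higher than lower. In M against Normal, 117 of 151 genes (77.5%) were called, where 70.0% of all tested genes were. Of these, 74 (49.0% of the 151) were higher than in Normal, where 35.5% of all tested genes were, and 43 (28.5%) were lower, where 34.5% of all tested genes were. In ET against Normal 115 (76.2%) were called (background 70.2%): 74 were higher (background 35.0%) and 41 (27.2%) were lower (background 35.2%). Genes that had to differ make up 5 of the higher and 3 of the lower calls in each comparison. These counts are thus partly fixed by the FPKM minimum. These calls are from edgeR's quasi-likelihood test on counts, with Benjamini-Hochberg adjustment over all 11536 tested genes at 0.05. The median log2 change over the 151 genes was 0.13 in M and 0.14 in ET, beside -0.01 and -0.02 over all tested genes. Changes of at least 2-fold were less common: 16 genes higher and 12 lower in M, with backgrounds of 10.6% and 5.28%, and 17 higher and 10 lower in ET, with backgrounds of 10.8% and 5.24%. The genes that had to differ make up 5 of the higher and 2 of the lower ones in each. At 10.6% of the 151 genes, the rises of that size in M were as common as among all genes. The libraries of M and Normal did not overlap for 120 genes, or 79.5% against 74.8% of all tested genes, and those of ET and Normal for 123 genes, or 81.5% against 73.2%. The M and ET comparisons share the same Normal libraries, so their counts are not separate evidence. With libraries scaled by total counts instead of TMM factors, the split was 62 higher and 54 lower in M and 66 higher and 53 lower in ET. That scaling moved all tested genes too, to 30.0% higher and 41.2% lower in M and to 30.1% higher and 41.3% lower in ET.

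**Figure D2:**
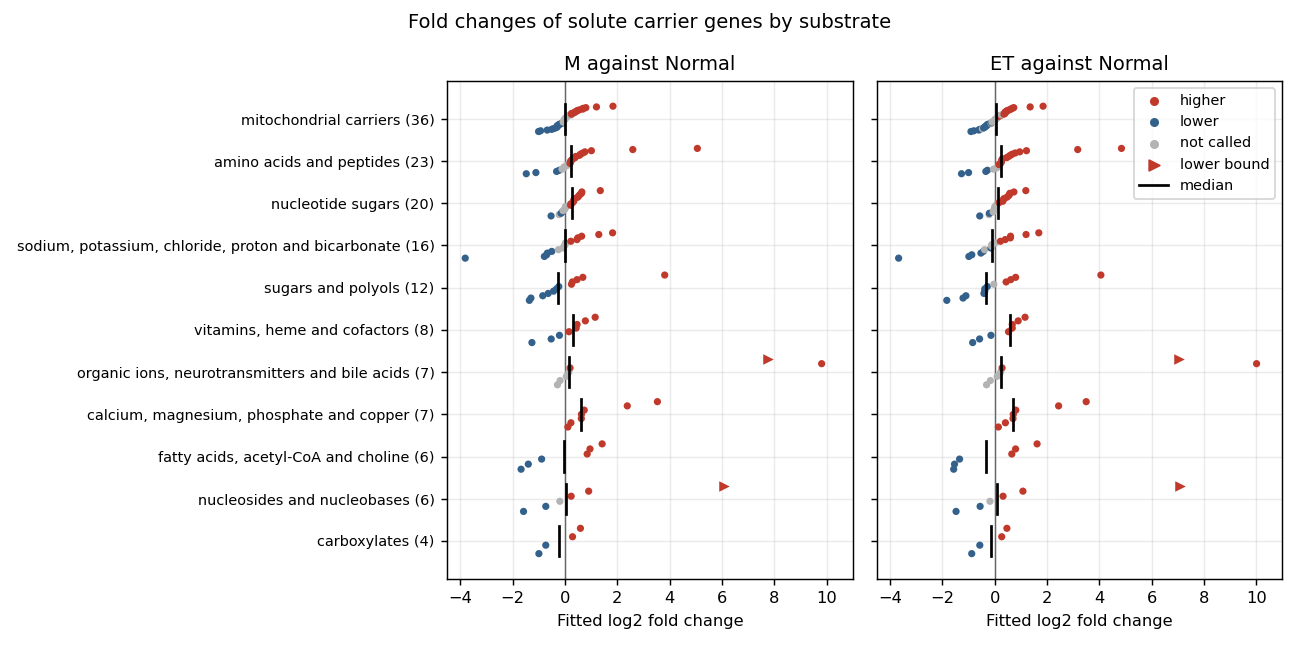
Fitted log2 fold change of each solute carrier gene against Normal, for M (left) and ET (right), by substrate class with the number of genes in parentheses. Red points were called higher, blue points lower and grey points neither, bars are class medians, and triangles are lower bounds for genes without a count in Normal. Carriers that had to differ are coloured like the others, although their calls are no test. Nucleotide sugars stands for the whole Slc35 family, and carboxylates for 4 Slc16 genes. Slc66a2 and the 5 genes that are not carriers are not drawn. All 7 carriers of calcium, magnesium, phosphate and copper lie above 0 in both panels. Of the 12 sugar and polyol carriers, 7 were called lower in each (background 34.5% in M and 35.2% in ET).

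Below, values within a gene are CPM, counts relative to library size with TMM factors, given for replicates 1, 2 and 3, and changes are log2 fold changes ± SE from the edgeR fit. Among genes with counts in Normal, the largest difference was that of Slc6a4, the serotonin transporter, which clears serotonin from outside the cell (chr11:76998603-77032340). Slc6a4 had 134, 138 and 146 CPM in M, 166, 158 and 158 CPM in ET, and 0.0947, 0.101 and 0.288 CPM in Normal. The gene was near 0 in all 3 Normal libraries and well above in the other 6, with no overlap. The log2 change was 9.80 ± 0.13 in M and 10.01 ± 0.13 in ET, a description only, since Slc6a4 is one of the genes that passed the FPKM minimum through the treated libraries alone. So is Slc17a6 of the same class, which fills synaptic vesicles with glutamate in neurons. Slc17a6 had 9.67, 8.71 and 10.9 CPM in M, 5.79, 4.82 and 7.53 CPM in ET, and 0, 0 and 0 CPM in Normal. It had no count in Normal, which allows up to 0.0378 to 0.0509 CPM per library at a floor of 3 counts. Against that floor Slc17a6 was at least 215-fold higher in M and at least 133-fold higher in ET. Of the other 5 carriers of organic ions, neurotransmitters and bile acids, Slc17a5, the lysosomal sialic acid exporter, rose slightly, with a log2 change of 0.19 ± 0.07 in M and 0.29 ± 0.07 in ET. Its call in M was lost with total-count scaling (edgeR adjusted p = 0.231), with no filter on low values, with limma and without M replicate 1 or 2 or Normal replicate 1 or 3 (edgeR adjusted p = 0.0638 to 0.129). The carnitine carrier Slc22a5 was not called, with -0.29 ± 0.14 in M and -0.16 ± 0.14 in ET, and neither were Slc22a17, Slc10a3 and Slc10a7.

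The 250 bases upstream of the RefSeq start (GRCm38.p6) are shown for 6 genes that carry the results: 3 with large differences and at least 5 FPKM in the higher group (Slc6a4, Slc31a2, Slc41a2), the largest fall (Slc9a9), a gene higher in M than in ET (Slc37a2), and a gene counted in treated libraries only (Slc28a2). They lie at chr11:76998347-76998596, plus strand for Slc6a4, chr4:62286179-62286428, plus strand for Slc31a2, and chr10:83337818-83338067, minus strand for Slc41a2. Those of Slc9a9, Slc37a2 and Slc28a2 lie at chr9:94669642-94669891, plus strand, at chr9:37255739-37255988, minus strand, and at chr2:122426185-122426434, plus strand. Each is printed 5′ to 3′ on the strand of its gene, and capitals mark the motif matches that were found.
Slc6a4: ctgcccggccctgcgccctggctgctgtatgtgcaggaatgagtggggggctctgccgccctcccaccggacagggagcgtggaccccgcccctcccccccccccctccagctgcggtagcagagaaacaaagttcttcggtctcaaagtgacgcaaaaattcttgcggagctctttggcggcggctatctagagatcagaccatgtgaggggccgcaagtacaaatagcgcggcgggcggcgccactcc
Slc31a2: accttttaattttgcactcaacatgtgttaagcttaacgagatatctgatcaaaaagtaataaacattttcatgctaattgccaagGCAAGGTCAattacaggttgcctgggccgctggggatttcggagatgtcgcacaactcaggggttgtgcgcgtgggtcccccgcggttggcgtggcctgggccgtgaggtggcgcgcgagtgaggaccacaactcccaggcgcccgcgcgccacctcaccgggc
Slc41a2: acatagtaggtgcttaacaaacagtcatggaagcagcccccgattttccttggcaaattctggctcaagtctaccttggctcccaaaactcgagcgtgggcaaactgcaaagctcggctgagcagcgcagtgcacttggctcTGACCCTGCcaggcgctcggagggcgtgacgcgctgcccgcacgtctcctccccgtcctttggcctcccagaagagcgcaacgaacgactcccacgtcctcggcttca
Slc9a9: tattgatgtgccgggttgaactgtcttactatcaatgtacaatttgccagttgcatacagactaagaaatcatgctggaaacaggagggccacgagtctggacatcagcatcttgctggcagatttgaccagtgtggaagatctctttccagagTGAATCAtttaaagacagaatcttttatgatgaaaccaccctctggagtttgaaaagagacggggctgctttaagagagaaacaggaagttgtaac
Slc37a2: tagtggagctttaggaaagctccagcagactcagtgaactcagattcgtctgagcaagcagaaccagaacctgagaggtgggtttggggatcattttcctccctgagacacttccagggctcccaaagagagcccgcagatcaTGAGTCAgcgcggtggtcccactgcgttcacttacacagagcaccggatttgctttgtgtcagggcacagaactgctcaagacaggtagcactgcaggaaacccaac
Slc28a2: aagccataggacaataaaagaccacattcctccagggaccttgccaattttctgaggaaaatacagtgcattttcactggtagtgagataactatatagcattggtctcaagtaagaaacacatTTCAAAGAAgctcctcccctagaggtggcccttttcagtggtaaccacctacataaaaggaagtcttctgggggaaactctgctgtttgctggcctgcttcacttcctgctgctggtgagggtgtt
The 8 motifs searched on both strands were NF-kB (GGG, any 2 bases, then TTTCC), ISRE (GAAA, any 2 bases, then GAAA), AP-1 (TGANTCA), CRE (TGACGTCA), E-box (CACGTG), ARE (TGACNNNGC), CARE (TTGCATCA) and GAS (TTCNNNGAA). Slc31a2 and Slc41a2 have an ARE match, Slc9a9 and Slc37a2 an AP-1 match, Slc28a2 a GAS match, and Slc6a4 none. The RefSeq start of Slc31a2 lies 23867 bases inside the deposited gene. Of the 151 genes, 109 were matched to the promoter table. ARE letters were in 17.4% of the 109, in 11.9% of 8002 tested genes and in 10.2% of all 32851 promoters. E-box letters were in 11.9% of the 109, 8.94% of the tested genes and 6.02% of all promoters. In the same order, AP-1 letters were in 7.34%, 4.12% and 6.75%, and GAS letters in 5.50%, 5.87% and 7.02%. The NF-kB, ISRE, CRE and CARE letters were in 0.917%, 1.83%, 1.83% and 1.83% of the 109. They were in 1.46%, 2.80%, 2.91% and 0.562% of the tested genes and in 1.41%, 2.98%, 1.55% and 0.791% of all promoters. Of 57 matches in these genes, 2 overlapped a match of another motif. A match is a run of letters, not a bound site.

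**Figure D3:**
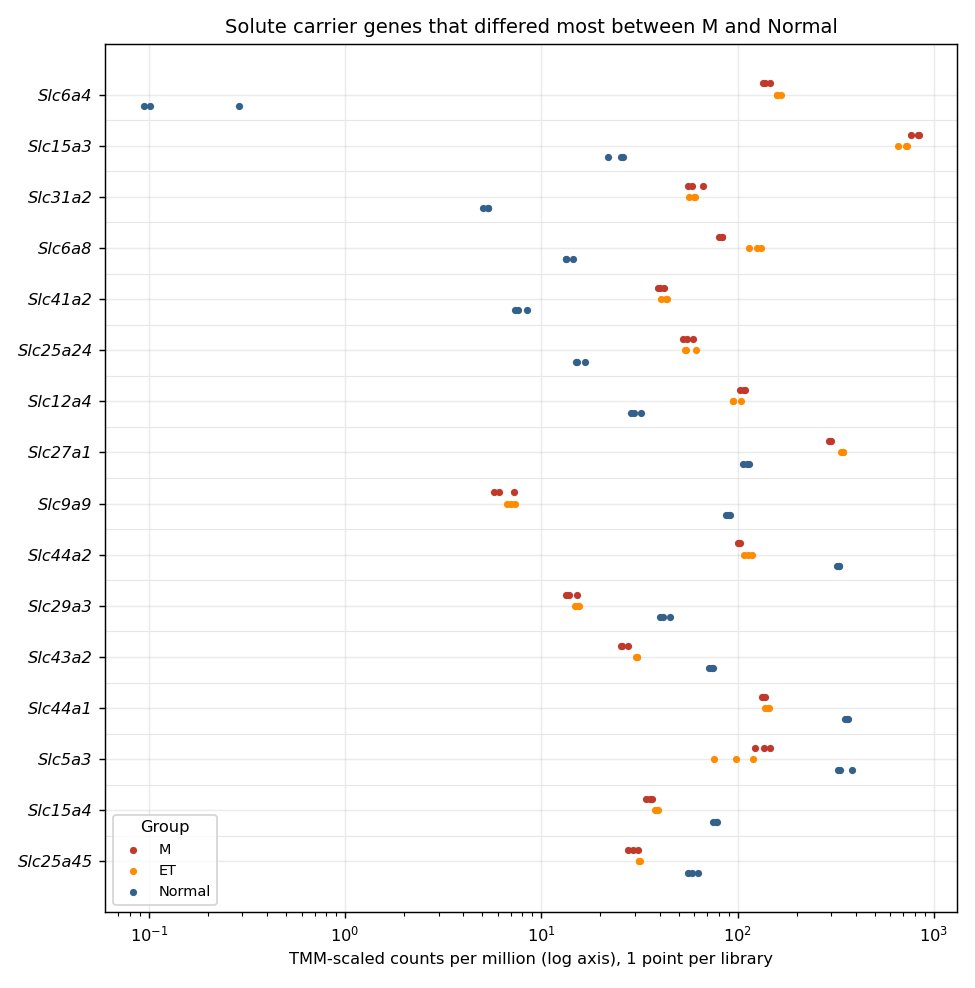
TMM-scaled CPM (log axis) of the 8 solute carrier genes with the largest rises and the 8 with the largest falls in M against Normal, among called genes of at least 5 FPKM in the higher group, with 1 point per library and the groups M, ET and Normal from top to bottom. Slc6a4 lies between 134 and 146 CPM in M and between 0.0947 and 0.288 CPM in Normal, and Slc9a9 between 5.71 and 7.25 CPM in M and between 87.2 and 91.0 CPM in Normal.

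Among the carriers of amino acids, peptides and creatine, the glutamine carrier Slc1a5, the CD98 heavy chain Slc3a2 and the creatine carrier Slc6a8 rose, and the lysosomal peptide carriers Slc15a3 and Slc15a4 went opposite ways. Of 23 genes, 14 rose and 4 fell in M (background 35.5% and 34.5%), and 15 rose and 4 fell in ET (background 35.0% and 35.2%). The median log2 change was 0.21 in M and 0.26 in ET. Slc15a3, a proton-driven carrier of histidine and small peptides on lysosomes (chr19:10839727-10859362), had 831, 837 and 765 CPM in M, 729, 722 and 659 CPM in ET, and 25.9, 21.9 and 25.5 CPM in Normal. All 6 treated libraries lay far above the 3 Normal ones. The log2 change against Normal was 5.05 ± 0.07 in M (edgeR adjusted p = 1.98e-14) and 4.85 ± 0.07 in ET (edgeR adjusted p = 2.83e-14). Exons of Tmem132a on the opposite strand cover 28.1% of its exon bases, and how strands were treated in counting is not stated. Its relative Slc15a4 carries the same substrates. Slc15a4 had 35.7, 34.2 and 36.6 CPM in M, 38.0, 39.2 and 38.7 CPM in ET, and 78.7, 74.7 and 77.3 CPM in Normal, so it was lower in every treated library. Against Normal, Slc15a4 changed by -1.12 ± 0.05 in M (edgeR adjusted p = 5.71e-10) and -0.99 ± 0.05 in ET (edgeR adjusted p = 1.77e-09) on the log2 scale.

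The creatine carrier Slc6a8 had 83.7, 83.4 and 80.3 CPM in M, 131, 126 and 115 CPM in ET, and 13.4, 13.3 and 14.5 CPM in Normal. Here ET lay above M and both lay above Normal, without overlap. Its log2 change was 2.59 ± 0.06 in M (edgeR adjusted p = 8.68e-13) and 3.18 ± 0.06 in ET (edgeR adjusted p = 1.60e-13). Slc3a2, the heavy chain (CD98) that brings several amino acid exchangers to the plasma membrane, had 286, 290.2 and 269 CPM in M, 340.2, 328 and 304 CPM in ET, and 168, 161 and 170.4 CPM in Normal. It was higher in all treated libraries, with a log2 change of 0.76 ± 0.05 in M and 0.96 ± 0.05 in ET. Of its light chains, Slc7a7, which exchanges cationic for neutral amino acids, changed by 1.005 ± 0.14 in M and 1.22 ± 0.14 in ET. Slc7a5, the large neutral amino acid exchanger, changed by 0.20 ± 0.05 in M and 0.28 ± 0.05 in ET, and Slc7a6 by 0.19 ± 0.04 in M and 0.26 ± 0.04 in ET, where the call in M was lost with total-count scaling and with limma. The light chain Slc7a8 lay just under the FPKM minimum, with mean levels of 1.16 FPKM in M, 0.880 FPKM in ET and 0.244 FPKM in Normal.

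Slc1a5, the sodium-coupled exchanger that brings in glutamine, had 486, 498 and 500.0 CPM in M, 546, 549 and 525 CPM in ET, and 343, 329 and 344 CPM in Normal. It was higher in all treated libraries, by 0.55 ± 0.03 in M (edgeR adjusted p = 1.22e-08) and 0.67 ± 0.03 in ET (adjusted p = 1.60e-09). The related system A carriers split. Slc38a1 rose, by 0.59 ± 0.03 in M and 0.60 ± 0.03 in ET, while Slc38a2, which cells induce when amino acids are short, fell. Slc38a2 had 561, 536 and 554 CPM in M, 545, 540.5 and 553 CPM in ET, and 701, 687 and 679 CPM in Normal, and no treated library reached the Normal ones. Its log2 change was -0.32 ± 0.03 in M and -0.33 ± 0.03 in ET. The taurine carrier Slc6a6 also fell by 0.22 in M and fell by 0.28 in ET on the log2 scale. Slc43a2, a facilitated carrier of branched-chain amino acids and phenylalanine, fell furthest in this class. Slc43a2 had 25.6, 27.5 and 25.9 CPM in M, 30.7, 30.9 and 30.3 CPM in ET, and 71.2, 75.0 and 74.4 CPM in Normal, in 3 separate bands. This is a log2 change of -1.48 ± 0.05 in M (edgeR adjusted p = 7.19e-11) and of -1.26 ± 0.05 in ET (edgeR adjusted p = 3.22e-10) against Normal. Slc38a9, which senses lysosomal arginine for mTORC1, was near the detection minimum and rose by 0.26 ± 0.09 in M and 0.23 ± 0.09 in ET. Its call was lost in both with total-count scaling (edgeR adjusted p = 0.131 in M and 0.173 in ET), with no filter on low values and with limma, and in ET also with another filter and with the replicate block. It was lost in M without M replicate 1 or 2 or Normal replicate 1 (edgeR adjusted p = 0.0771 to 0.107), and in ET without M replicate 2, ET replicate 1, 2 or 3 or Normal replicate 1 (edgeR adjusted p = 0.0517 to 0.155) as well.

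Carriers of calcium, magnesium, phosphate and copper were the only class of more than 1 gene in which each was called higher in both treated groups. All 7 rose in M (background 35.5%) and in ET (background 35.0%), with a median log2 change of 0.62 in M and 0.71 in ET. However, with total-count scaling or limma Slc31a1 was not called in either and Slc20a2 was not called in M. With no filter on low values Slc31a1 was not called in M. Slc31a2 (chr4:62262562-62298411), which acts on vesicular copper and is related to the copper importer Slc31a1, had 56.0, 66.4 and 58.9 CPM in M, 56.7, 60.9 and 60.3 CPM in ET, and 5.33, 5.07 and 5.33 CPM in Normal. The treated libraries stood far above the Normal ones. The log2 change against Normal was 3.53 ± 0.08 in M (edgeR adjusted p = 5.64e-13) and 3.50 ± 0.08 in ET (edgeR adjusted p = 6.25e-13). Slc31a1 itself had 97.7, 98.2 and 99.1 CPM in M, 101, 101 and 101 CPM in ET, and 91.3, 91.9 and 90.7 CPM in Normal, a narrow range in all groups, with a log2 change of 0.11 ± 0.03 in M and 0.14 ± 0.03 in ET. Of the magnesium carriers, Slc41a2 (chr10:83230848-83337882) had 42.1, 40.1 and 39.2 CPM in M, 43.0, 43.8 and 40.5 CPM in ET, and 8.44, 7.31 and 7.64 CPM in Normal. Its libraries formed a high treated group and a low Normal group, with a log2 change of 2.38 ± 0.07 in M and 2.45 ± 0.07 in ET, and Slc41a1 changed by 0.73 ± 0.06 in M and 0.71 ± 0.06 in ET. The sodium-phosphate carriers Slc20a1 and Slc20a2 changed by 0.62 ± 0.04 and 0.22 ± 0.06 in M and by 0.70 ± 0.04 and 0.41 ± 0.06 in ET. The cation exchanger Slc24a5 changed by 0.62 ± 0.16 in M and 0.81 ± 0.16 in ET, but exons of Myef2 on the other strand cover 39.5% of its exon bases.

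Carriers of sodium, potassium, chloride, protons and bicarbonate moved both ways. Of 16 genes, 6 rose and 5 fell in M (background 35.5% and 34.5%), and 6 rose and 6 fell in ET (background 35.0% and 35.2%). The falls include Slc26a11, which passed the FPKM minimum mainly through Normal. The fall of Slc9a9 was the largest of all 151 genes. Slc9a9 (chr9:94669909-95230445) exchanges sodium or potassium for protons on endosomes. It had 6.10, 7.25 and 5.71 CPM in M, 7.37, 6.71 and 7.03 CPM in ET, and 87.2, 91.0 and 90.2 CPM in Normal, so every treated library lay far below every Normal one. Against Normal, Slc9a9 changed by -3.82 ± 0.09 in M (edgeR adjusted p = 7.08e-13) and -3.67 ± 0.09 in ET (edgeR adjusted p = 1.02e-12) on the log2 scale. Slc9a4 rose, by 1.29 ± 0.09 in M and 1.20 ± 0.09 in ET, and Slc9a5 fell, with -0.79 ± 0.13 in M and -0.87 ± 0.13 in ET. Among the cation-chloride cotransporters, Slc12a4, which lets potassium and chloride leave the cell, rose most. Slc12a4 had 108, 109 and 102 CPM in M, 103, 94.5 and 94.2 CPM in ET, and 28.7, 29.8 and 32.2 CPM in Normal, with treated and Normal libraries apart. Its log2 change was 1.81 ± 0.06 in M (edgeR adjusted p = 1.38e-11) and 1.69 ± 0.06 in ET (edgeR adjusted p = 2.87e-11). Its relative Slc12a7 changed by 0.45 ± 0.05 in M and 0.60 ± 0.05 in ET. The sodium-driven importer Slc12a2 was not called, at 0.00 ± 0.06 in M and -0.11 ± 0.06 in ET, but was called lower in ET with total-count scaling. The chloride-bicarbonate exchanger Slc4a2 and the sodium-bicarbonate carrier Slc4a7 rose, by 0.63 ± 0.05 and 0.49 ± 0.06 in M, and by 0.61 ± 0.05 and 0.41 ± 0.06 in ET. The sulfate carrier Slc26a2 fell by 0.71 in M and fell by 0.98 in ET on the log2 scale.

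Sugar and polyol carriers were called in both directions, with Slc2a1 outside the set. Of 12 genes, 5 rose and 7 fell in M (background 35.5% and 34.5%), and 4 rose and 7 fell in ET (background 35.0% and 35.2%). The median log2 change was -0.28 in M and -0.33 in ET. Slc2a6, a hexose carrier found on lysosomes, was the most abundant Slc2 gene of the set. Slc2a6 had 122, 119 and 114 CPM in M, 99.1, 104 and 97.9 CPM in ET, and 207, 215 and 219.9 CPM in Normal. Its 3 groups did not overlap, with Normal highest and ET lowest. This is a log2 change of -0.85 ± 0.04 in M (edgeR adjusted p = 1.02e-09) and of -1.10 ± 0.04 in ET (edgeR adjusted p = 9.74e-11) against Normal. Slc2a3, a high-affinity glucose carrier, rose, by 0.46 ± 0.05 in M and 0.62 ± 0.05 in ET. Slc2a9, a urate carrier, also rose, by 0.68 ± 0.09 in M and 0.80 ± 0.09 in ET, and Slc2a8 fell, with -1.31 ± 0.15 in M and -1.21 ± 0.15 in ET. Slc5a3, which takes up myo-inositol with sodium (chr16:92058322-92087473), had 122, 136 and 146 CPM in M, 75.4, 98.3 and 119 CPM in ET, and 325, 382 and 332 CPM in Normal. The Normal libraries lay well above the others, and those of ET were widely spread. The log2 change against Normal was -1.36 ± 0.13 in M (edgeR adjusted p = 8.99e-07) and -1.83 ± 0.13 in ET (edgeR adjusted p = 6.07e-08). Slc45a3, another gene that passed the FPKM minimum through treated libraries alone, had 16.6, 15.0 and 15.3 CPM in M, 16.9, 22.0 and 17.1 CPM in ET, and 1.17, 1.45 and 0.679 CPM in Normal, with a log2 change of 3.81 ± 0.21 in M and 4.06 ± 0.21 in ET. The Slc37 genes, which include sugar phosphate exchangers of the endoplasmic reticulum, were divided. Slc37a4, the glucose 6-phosphate carrier of the glucose 6-phosphatase system, and Slc37a3 fell, Slc37a1 rose, and Slc37a2 was called higher in M but not in ET. On the log2 scale Slc37a4 changed by -0.24 ± 0.07 in M and -0.38 ± 0.07 in ET, Slc37a3 by -0.33 ± 0.07 in M and -0.37 ± 0.07 in ET, and Slc37a1 by 0.24 ± 0.07 in M and 0.44 ± 0.07 in ET. In M, the call of Slc37a1 was lost with total-count scaling and with limma, and that of Slc37a4 without Normal replicate 3 (edgeR adjusted p = 0.0565).

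For lipids and choline, the fatty acid carriers Slc27a1 and Slc27a4 rose and the choline carrier-like genes fell. Of 6 genes, 3 rose and 3 fell in each treated group (background 35.5% and 34.5% in M, 35.0% and 35.2% in ET). The falls include Slc27a3, which had to be lower. Slc27a1, which couples fatty acid uptake to activation with coenzyme A, had 293, 296 and 298 CPM in M, 346, 344 and 336 CPM in ET, and 107, 111 and 115 CPM in Normal. Its 3 groups did not overlap, with ET highest. Against Normal, Slc27a1 changed by 1.41 ± 0.04 in M (edgeR adjusted p = 2.24e-12) and 1.62 ± 0.04 in ET (edgeR adjusted p = 6.48e-13) on the log2 scale. Slc27a4 of the same family rose, by 0.95 ± 0.07 in M and 0.80 ± 0.07 in ET. Slc27a3, which passed the FPKM minimum through Normal alone and so had to be lower in M and ET, changed by -0.90 ± 0.21 in M and -1.56 ± 0.22 in ET. Slc33a1, which brings acetyl-CoA into the endoplasmic reticulum, rose, by 0.84 ± 0.05 in M and 0.66 ± 0.05 in ET, with 32.0% of its exon bases under an antisense gene. Slc44a1 had 138, 135 and 133 CPM in M, 137, 143 and 145 CPM in ET, and 359, 363 and 353 CPM in Normal. Slc44a2 had 101, 101 and 103 CPM in M, 113, 118 and 108 CPM in ET, and 319, 329.6 and 329 CPM in Normal. Neither gene had a treated library near the Normal range. Their log2 changes were -1.41 ± 0.04 in M and -1.34 ± 0.04 in ET for Slc44a1, and -1.68 ± 0.04 in M and -1.53 ± 0.04 in ET for Slc44a2.

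Among nucleoside and nucleobase carriers, the equilibrative carriers Slc29a1 and Slc29a3 fell, and the sodium-driven Slc28a2 was counted in treated libraries only. Of 6 genes, 3 rose and 2 fell in each treated group (background 35.5% and 34.5% in M, 35.0% and 35.2% in ET). The rises include Slc28a2, which had to be higher. Slc28a2, which concentrates purine nucleosides with sodium, had 3.35, 2.92 and 2.97 CPM in M, 6.38, 5.60 and 6.57 CPM in ET, and 0, 0 and 0 CPM in Normal. Slc28a2 passed the FPKM minimum through the ET libraries alone. It had no count in Normal, and lay at least 67.9-fold above the floor of 3 counts per library in M and at least 136-fold above it in ET. The equilibrative carrier Slc29a1 had 76.5, 79.1 and 75.2 CPM in M, 91.1, 85.8 and 85.4 CPM in ET, and 134, 124 and 126 CPM in Normal, with the Normal libraries highest, and fell by 0.74 in M and fell by 0.55 in ET on the log2 scale. Slc29a3, the lysosomal member, had 15.2, 13.3 and 13.8 CPM in M, 15.5, 15.4 and 14.9 CPM in ET, and 40.4, 41.5 and 45.3 CPM in Normal. Treated and Normal libraries of Slc29a3 lay apart. Its log2 change was -1.59 ± 0.07 in M (edgeR adjusted p = 8.88e-10) and -1.47 ± 0.07 in ET (edgeR adjusted p = 1.81e-09). Slc29a2 was not called, at -0.20 ± 0.10 in M and -0.18 ± 0.10 in ET. The nucleobase carrier Slc43a3 rose, by 0.90 ± 0.06 in M and 1.08 ± 0.06 in ET. Slc17a9, which loads ATP into vesicles, rose slightly, by 0.23 ± 0.08 in M and 0.32 ± 0.08 in ET. Its call in M was lost with total-count scaling (edgeR adjusted p = 0.155), with no filter on low values, with limma and without M replicate 2 or 3 or Normal replicate 1 or 2 (edgeR adjusted p = 0.0521 to 0.11).

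Among vitamin, heme and cofactor carriers, 5 of 8 rose and 3 fell in each treated group (background 35.5% and 34.5% in M, 35.0% and 35.2% in ET). The falls include Slc46a3, which had to be lower. The vitamin C carrier Slc23a2 rose most. Slc23a2 had 246, 247 and 228 CPM in M, 241, 253 and 235 CPM in ET, and 104, 118 and 103 CPM in Normal. Its treated libraries all lay above its Normal ones. This is a log2 change of 1.15 ± 0.06 in M (edgeR adjusted p = 1.20e-09) and of 1.16 ± 0.06 in ET (edgeR adjusted p = 1.07e-09) against Normal. The riboflavin carrier Slc52a2 changed by 0.77 ± 0.06 in M and 0.90 ± 0.06 in ET and the thiamine carrier Slc19a2 by 0.42 ± 0.04 in M and 0.53 ± 0.04 in ET. The folate carriers differed: the reduced folate carrier Slc19a1 changed by -0.22 ± 0.04 in M and -0.14 ± 0.04 in ET, and the proton-coupled carrier Slc46a1 by 0.46 ± 0.19 in M and 0.67 ± 0.19 in ET. The call of Slc19a1 in ET was lost without ET replicate 1 (edgeR adjusted p = 0.0627). The call of Slc46a1 in M was lost with total-count scaling (edgeR adjusted p = 0.101), with the fit of 6 libraries, with another filter on low values or none, with limma and without M replicate 1 or 3, ET replicate 1 or 2 or Normal replicate 1 or 2 (edgeR adjusted p = 0.0535 to 0.162), with an adjusted p of 0.0462 when all 9 libraries were used. Slc5a6, which takes up biotin and pantothenate, changed by -0.53 ± 0.09 in M and -0.57 ± 0.09 in ET. Slc46a3 was under 1 FPKM in every treated library, so it had to be lower there, and changed by -1.27 ± 0.23 in M and -0.84 ± 0.22 in ET. In the carboxylate class of 4 Slc16 genes, Slc16a13 and Slc16a6 were higher and Slc16a7 and Slc16a12 lower in both treated groups. Backgrounds were 35.5% and 34.5% in M, and 35.0% and 35.2% in ET. This class was set by family name, and the substrate of a member, such as Slc16a12, may be another. Slc16a7 averaged 0.839 ± 0.021 FPKM in M, 0.954 ± 0.075 FPKM in ET and 1.49 ± 0.051 FPKM in Normal. It passed the FPKM minimum mainly through Normal, so its fall is a description only. The kidney-type dicarboxylate carrier Slc13a3 lay under the FPKM minimum, at 0.250 FPKM in M, 0.190 FPKM in ET and 0.427 FPKM in Normal. Slc16a13 changed by 0.59 ± 0.08 in M and 0.47 ± 0.08 in ET, Slc16a12 by -1.001 ± 0.08 in M and -0.87 ± 0.08 in ET, and Slc16a6, of whose exon bases 21.5% lie under Amz2, by 0.28 ± 0.04 in M and 0.27 ± 0.04 in ET.

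The mitochondrial carriers were split about as all tested genes were. Of 36, 12 were higher and 13 lower in M (background 35.5% and 34.5%). In ET 14 were higher and 11 lower (background 35.0% and 35.2%). The carriers of adenine nucleotides did not move as a group. Slc25a24, which exchanges ATP-magnesium for phosphate, had 59.0, 52.7 and 55.1 CPM in M, 54.3, 54.0 and 61.4 CPM in ET, and 16.7, 15.0 and 15.3 CPM in Normal. Its treated libraries lay far above its Normal ones. The log2 change against Normal was 1.83 ± 0.07 in M (edgeR adjusted p = 2.03e-10) and 1.85 ± 0.07 in ET (edgeR adjusted p = 1.85e-10). Slc25a25 of the same subfamily rose, by 0.43 ± 0.06 in M and 0.56 ± 0.06 in ET, and Slc25a23 fell, with -0.94 ± 0.07 in M and -0.79 ± 0.07 in ET. The ADP/ATP exchanger Slc25a5 had 713, 709 and 702 CPM in M, 725, 727 and 687 CPM in ET, and 911, 854 and 852 CPM in Normal. No treated library reached the Normal range, and the log2 change was -0.30 ± 0.04 in M and -0.29 ± 0.04 in ET. The phosphate carrier Slc25a3 fell slightly, with -0.10 ± 0.03 in M and -0.13 ± 0.03 in ET, and was not called in M without Normal replicate 1 (edgeR adjusted p = 0.0505).

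Slc25a1, which exports citrate for lipid and acetyl-CoA synthesis, had 88.0, 81.2 and 85.5 CPM in M, 74.6, 78.3 and 71.6 CPM in ET, and 99.5, 97.7 and 103 CPM in Normal. Its groups did not overlap, with Normal highest and ET lowest, and the log2 change was -0.23 ± 0.05 in M and -0.42 ± 0.05 in ET. The dicarboxylate carrier Slc25a10 fell, with -0.37 ± 0.04 in M and -0.38 ± 0.04 in ET. The aspartate-glutamate carriers differed: Slc25a12 rose, by 0.25 ± 0.05 in M and 0.40 ± 0.05 in ET, while Slc25a13 was not called, at 0.03 ± 0.04 in M and 0.02 ± 0.04 in ET. Slc25a20, which carries acylcarnitines for fatty acid oxidation, rose by 0.79 ± 0.10 in M and 0.67 ± 0.10 in ET. Of the carriers linked to mitochondrial glutathione and iron, Slc25a39 rose, by 0.35 ± 0.04 in M and 0.47 ± 0.04 in ET, Slc25a28 fell, with -0.31 ± 0.05 in M and -0.31 ± 0.05 in ET, and Slc25a37 was not called. Slc25a33 and Slc25a36 both carry pyrimidine nucleotides and went opposite ways. Slc25a33 changed by 1.20 ± 0.07 in M and 1.36 ± 0.07 in ET, and Slc25a36 by -0.44 ± 0.09 in M and -0.57 ± 0.09 in ET. The largest fall in the class was that of Slc25a45. Slc25a45 had 27.6, 31.1 and 29.2 CPM in M, 31.5, 31.6 and 31.8 CPM in ET, and 56.1, 58.8 and 62.6 CPM in Normal, with treated and Normal libraries apart and a log2 change of -1.01 ± 0.06 in M and -0.90 ± 0.06 in ET.

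The Slc35 genes rose more often than they fell. Only some of them bring nucleotide sugars into the Golgi or endoplasmic reticulum for glycosylation, so the counts are of the family and not of 1 substrate. Of 20 genes, 12 rose and 3 fell in M (background 35.5% and 34.5%), and 10 rose and 2 fell in ET (background 35.0% and 35.2%). The rises include Slc35d2, which had to be higher. The median log2 change was 0.25 in M and 0.13 in ET. The carriers of CMP-sialic acid (Slc35a1) and UDP-galactose (Slc35a2) changed by 0.64 ± 0.08 and 0.63 ± 0.09 in M, and by 0.74 ± 0.08 and 0.47 ± 0.09 in ET. The GDP-fucose carrier Slc35c1 had 65.1, 66.1 and 65.4 CPM in M, 63.8, 66.7 and 62.0 CPM in ET, and 95.7, 92.9 and 96.5 CPM in Normal. Slc35c1 thus went the other way, lower in every treated library, with a log2 change of -0.54 ± 0.04 in M and -0.57 ± 0.04 in ET. The most abundant gene of the class, Slc35a4, was not called, at -0.08 ± 0.04 in M and -0.05 ± 0.04 in ET, but was called lower in both groups with total-count scaling. Slc35e4 and Slc35b1, next in level, changed by 0.29 ± 0.05 and 0.34 ± 0.05 in M, and by 0.36 ± 0.05 and 0.17 ± 0.05 in ET, where the call of Slc35b1 was lost with total-count scaling and with limma. Slc35d2, under 1 FPKM in every Normal library and so bound to be higher in M and ET, changed by 1.35 ± 0.20 in M and 1.19 ± 0.20 in ET. Slc66a2, outside these classes, rose by 0.72 ± 0.08 in M and 0.87 ± 0.08 in ET. Of the 5 genes that are not carriers, Slc4a1ap was called higher in both treated groups, the pseudogene Slc2a4rg-ps passed the FPKM minimum through Normal alone, and Slc9a3r1, Slc9a3r2 and Slc7a6os were not called. With total-count scaling Slc9a3r1 was called lower in both. The call of Slc4a1ap was lost in both with total-count scaling and with limma, and in ET also with no filter on low values and without ET replicate 1 or 3 or Normal replicate 3 (edgeR adjusted p = 0.0503 to 0.1).

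The comparison of M with ET asks what the extract adds to LPS, whichever of the 2 labels is right, and its sign would turn with the labels. Of 151 genes, 11 were higher (background 4.97%) and 13 lower (background 4.12%) in M than in ET, 7.28% and 8.61% of the set, and together 15.9% of it (background 9.08%). Of all tested genes, 0.355% were higher and 0.113% lower by at least 2-fold. Slc28a2 alone of the 151 was lower by that much, but it passed the FPKM minimum only through ET and so had to be lower in M. The libraries of M and ET did not overlap for 56 genes, or 37.1% against 28.7% of all genes. The median log2 change was -0.04, beside 0.00 over all tested genes. By class, 6 of the 13 lower genes are in the amino acid, peptide and creatine class, against 1 of the 11 higher ones, where that class holds 23 of the 151. Of these 6, Slc1a5, Slc3a2, Slc38a10 and Slc43a2 were not called in 5 to 9 of 18 alternatives. Sugar carriers gave 3 higher and 2 lower genes. No carrier of calcium, magnesium, phosphate, copper or carboxylates was called.

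The creatine carrier Slc6a8, with values above, was lower in M than in ET without overlap, with a log2 change of -0.59 ± 0.05 (edgeR adjusted p = 4.00e-05). Slc48a1, which moves heme out of lysosomes after red cells are digested (chr15:97778520-97792692), had 63.2, 64.4 and 63.5 CPM in M, 94.4, 93.6 and 86.8 CPM in ET, and 62.0, 53.5 and 56.7 CPM in Normal. The ET libraries alone stood high, and those of M lay close above the Normal ones. Its log2 change was -0.53 ± 0.06 between M and ET (edgeR adjusted p = 1.06e-04), 0.67 ± 0.06 between ET and Normal, and 0.15 ± 0.06 between M and Normal. The last of these was no longer called with total-count scaling (edgeR adjusted p = 0.359), with another filter on low values or none, with limma or without M replicate 1, 2 or 3 or Normal replicate 2 or 3 (edgeR adjusted p = 0.0539 to 0.13). The aromatic amino acid carrier Slc16a10 (chr10:40033532-40142258) had 67.2, 65.2 and 65.2 CPM in M, 81.0, 85.0 and 84.6 CPM in ET, and 71.7, 64.4 and 67.5 CPM in Normal. M and Normal overlapped, and ET lay above both. The log2 change was -0.34 ± 0.05 between M and ET (edgeR adjusted p = 7.47e-04), and M against Normal was not called, at -0.04 ± 0.05, except with total-count scaling and with limma, which called it lower. The fatty acid carrier Slc27a1 was lower in M, with a log2 change of -0.21 ± 0.04 (edgeR adjusted p = 0.00324). For Slc28a2, with values above, the log2 change of -1.01 ± 0.16 is a description with no test.

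Higher in M was Slc37a2, the sugar phosphate exchanger (chr9:37227585-37255738), with 285, 301 and 289 CPM in M, 226, 249 and 232 CPM in ET, and 233, 244 and 245 CPM in Normal. M lay above ET and Normal, which overlapped. The log2 change was 0.31 ± 0.04 between M and ET (edgeR adjusted p = 8.80e-04) and 0.28 ± 0.04 between M and Normal, and ET against Normal was not called, at -0.03 ± 0.04, except with total-count scaling, which called it lower. Slc2a6 was higher in M than in ET by 0.24 ± 0.04 (edgeR adjusted p = 0.00334). Slc5a3 was higher by 0.46 ± 0.13 (edgeR adjusted p = 0.0451), with a wide spread in ET, and was not called in 14 of 18 alternatives. Slc17a6 differed by 0.69 ± 0.18, a description with no test, since all 3 M libraries but 1 ET library brought it past the FPKM minimum. In Slc5a3 the third ET library lay close below the lowest M library. The other higher genes included Slc6a12, Slc25a1, Slc26a2, Slc33a1, Slc35b1 and Slc35f6, with log2 changes between 0.14 and 0.28. Slc35f6 was not called in 4 of 18 alternatives, Slc35b1 in 17, and the others of these in 9. The other 8 lower genes were Slc1a5, Slc2a3, Slc3a2, Slc29a1, Slc38a10, Slc43a2, Slc44a2 and Slc45a4, between -0.24 and -0.13. Slc29a1 was not called in 4 of 18 alternatives, Slc3a2 and Slc38a10 in 5, Slc43a2 in 8, Slc1a5 and Slc44a2 in 9, Slc45a4 in 12 and Slc2a3 in 13. They include the glutamine carrier and the CD98 heavy chain, both higher in ET.

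**Figure D4:**
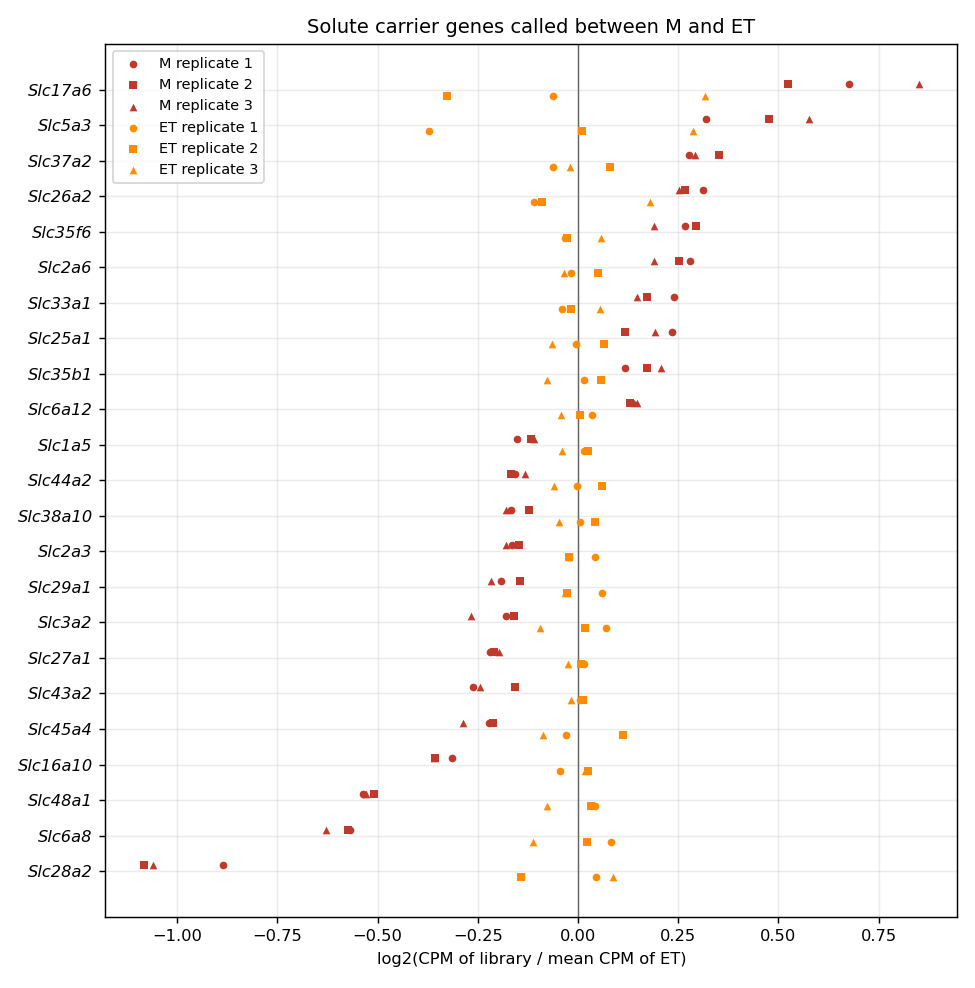
Log2 ratio of each library's CPM to the mean CPM of ET, for 23 of the 24 solute carrier genes called between M and ET, with the M libraries above the ET libraries in each row. Marker shapes stand for the replicate number, and ET replicate 3 is the ET library nearest to M in 15 of the 24.

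The M against ET counts moved with the libraries. ET replicate 3 was the ET library nearest to the M libraries for 15 of the 24 called genes. Without it, 7 genes were higher and 22 lower, where 9.72% of all tested genes were higher and 6.13% lower. Without any 1 of the other treated libraries (M replicates 1, 2 and 3, and ET replicates 1 and 2), 3 were higher in each case, and 6, 9, 5, 5 and 6 were lower in that order. Calls among all tested genes fell too. In the same order, 2.54%, 3.19%, 2.51%, 2.30% and 2.53% of them were higher, and 2.32%, 2.71%, 2.14%, 2.46% and 2.12% lower. Of the 24 genes, 7 kept their call in all 18 alternatives with other settings or a library left out: Slc6a8, Slc16a10, Slc27a1, Slc28a2, Slc48a1, Slc2a6 and Slc37a2, with Slc28a2 bound to be lower in M. Of the 117 genes called in M against Normal, 98 were called in all 18 alternatives, and of the 115 in ET against Normal, 103 were.

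A list of carriers and related membrane proteins with other symbols was split, as all tested genes were. Of 34 listed, 25 were tested, with 8 higher and 10 lower in M (background 35.5% and 34.5%). In ET 7 were higher and 9 lower (background 35.0% and 35.2%). The median log2 change was -0.03 in M and 0.06 in ET. Mcub rose most, by 1.57 ± 0.09 in M and 1.64 ± 0.09 in ET. It is a subunit that damps the mitochondrial calcium uniporter, a channel, and is not itself a solute carrier. The next largest rise of the list was that of Nipa1, by 1.04 ± 0.13 in M and 0.94 ± 0.13 in ET. Ctns, which exports cystine from lysosomes, fell most, with -0.99 ± 0.12 in M and -1.03 ± 0.12 in ET. Between M and ET, Sfxn1, the mitochondrial serine carrier, was higher by 0.16 ± 0.04, and 4 genes were lower (background 4.12%), led by Sfxn3 at -0.36 ± 0.09. Of 11 listed partner proteins and pumps that keep the ion gradients, 8 were tested. All but Oxsr1 were higher in both treated groups (background 35.5% in M and 35.0% in ET), and none was called between M and ET. Atp1b3, a subunit of the sodium pump, had 1201, 1196 and 1189 CPM in M, 1208, 1204 and 1217 CPM in ET, and 464, 436 and 453 CPM in Normal, with treated and Normal libraries far apart. Its log2 change was 1.41 ± 0.03 in M and 1.42 ± 0.03 in ET, and that of Bsg, the chaperone of lactate carriers, was 0.99 ± 0.04 in M and 0.95 ± 0.04 in ET.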

How the data were processed

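The 9 libraries hold polyadenylated RNA of RAW264.7 cells, 3 per group. Per the submitters' processing notes, the tools were cutadapt 1.9, HISAT2 2.2.1 and StringTie 2.1.6, with DESeq2 and edgeR without a version. The whole-number counts per gene are as the authors deposited them, and the FPKM values are the authors' own, per the file headers. The library kit marked strands with dUTP, but neither the counting tool nor its strand setting is stated, so reads of genes that overlap on opposite strands may be shared between them. No source used here names the genome build. Chromosome, start and end matched GENCODE M21 (GRCm38) for 22699 of the 26146 genes (86.8%) and for 120 of the 151 described here. Coordinates are printed only for genes among those 120, and promoter sequences are RefSeq's on GRCm38.p6.

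Each column of the table was assigned to the sample whose description names it. From the counts, TMM factors and 1 edgeR quasi-likelihood fit of the 3 groups were computed (edgeR 4.0.16, R 4.3.3) over the 11536 genes with at least 1 FPKM in at least 3 libraries, with Benjamini-Hochberg adjustment at 0.05. The standard error is the log2 change over the square root of its F statistic. For genes without a count in Normal, folds were taken against 3 counts in each Normal library, which covers counting error only. The test was run on simulated counts of 11536 genes, with 50 genes changed at each of the folds 1.25, 1.5, 2 and 4. False calls were 9.76% of calls in M against Normal, 5.06% in ET against Normal and 5.03% in M against ET. At 1.25-fold 52 to 54% of the changed genes were called, and at 4-fold 90 to 98%. Far more genes were called in the data, so the simulation does not cover that setting. Alternatives used DESeq2 1.42.0 and limma 3.58.1, other scalings and filters, and left out each library in turn.

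The members, their substrate classes and the lists of other transporters and partners were chosen with earlier results of these data known, and 2 genes were added to a class after the table was read. Genes named by rule were a panel of 28, the 8 largest rises and falls per comparison among called genes without overlap and at least 5 FPKM in the higher group, the 3 of highest level per class, and the largest called genes of the lists. The other genes named were chosen after their values were seen. Results for a few genes are not reported here.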

Additional observations from a re-analysis of the deposited data

How the results depend on the processing

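For M and ET against Normal, the counts of genes called stayed within 1.5 times those reported under every alternative except the demand for a 2-fold change, which left 16 higher and 12 lower genes in M and 17 higher and 10 lower genes in ET. Between M and ET that demand left 0 higher and 1 lower. The other counts between M and ET, reported as 11 higher and 13 lower, moved more. For higher genes they were 3 with no filter on low values, 3 with limma on log2(FPKM + 0.1), 6 with limma on log2(FPKM + 1), 7 with the fit of 6 libraries and 3 to 10 with a library left out. In the same order, 1.32%, 2.94%, 3.53%, 4.32% and 2.30 to 9.72% of all genes in each fit were higher. For lower genes they were 21 with DESeq2, where 6.82% of all tested genes were lower, 5 with no filter (1.03% of all genes) and 5 to 22 with a library left out (2.12 to 6.13% of all tested genes). With the replicate number as a block, 74 higher and 44 lower genes were called in M against Normal, 72 and 41 in ET against Normal, and 7 and 11 in M against ET. Of all tested genes, 35.3% and 34.1%, 34.8% and 34.9%, and 4.40% and 3.59% were called in that order. Libraries with the same number had correlations of their deviations between -0.050 and 0.0756, and those with different numbers between -0.0825 and 0.0861. Between M and ET alone, the same-number values (0.0756, 0.0373 and 0.0309) all lay above the different-number ones (-0.0571 to 0.0233). All were small, and the numbers were not taken to pair the libraries, so pairing of M with ET stays unsettled. The cause of the differences between alternatives was not tested. Of 1134 values of single named genes under an alternative in each comparison, none reversed; 49 were no longer called and 10 newly called in M against Normal, 13 and 18 in ET against Normal, and 124 and 13 in M against ET. With total counts in place of TMM factors, the median of all tested genes moved by less than 0.1 on the log2 scale. Genes of few counts, such as Slc28a2 and Slc17a6, are limited by depth, and their folds against Normal are lower bounds.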
